A study of Arabidopsis thaliana with 84 samples.

Results

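HRA1 (AT3G10040) and LDH1 (AT4G17260) are 2 Arabidopsis genes whose transcripts are known to accumulate when oxygen is short. Their probe sets, 258930_at for HRA1 and 245324_at for LDH1, were chosen by the locus that the platform annotation gives, and each locus had 1 probe set. They are 2 of 13513 probe sets annotated to 1 gene, on arrays of 22810 probe sets. Both passed the filter on low values in every comparison. Transcript levels were measured on 84 ATH1 arrays, 3 for each of 28 groups of roots, protoplasts or sorted root cells of the accession Col-0. Plants were 12 days old and grew in hydroponic basal MS medium with 0.5 mM ammonium succinate and 3 mM sucrose, and all groups share this history. The treatment was given at dawn and was 5 mM KNO3 or, in controls, 5 mM KCl. It lasted 2 h, except in 2 whole-root groups, where it lasted 3.5 h. After 1 h of wall digestion, fluorescent cells were collected from 5 kinds of tissue, called LRC (lateral root cap), EpiC (epidermis with cortex), EndoP (endodermis with pericycle), Peri (pericycle alone) and Stele, each in KCl, transitory nitrate and continuous nitrate. Nitrate was called continuous where the digestion solution also held it and transitory where it did not. The labels do not name the promoters that drive the sorting markers. Unsorted protoplasts and whole roots incubated in the same solution without enzymes received the same 3 treatments. Peri cells were further taken after 1 mM methionine sulfoximine (MSX), an inhibitor of glutamine synthetase, in KCl or in continuous nitrate, and after MSX with continuous nitrate and 5 mM glutamine.

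In low oxygen, plant group VII ERF transcription factors escape degradation and switch on a set of genes that includes HRA1. HRA1 is a trihelix transcription factor that in turn restrains RAP2.12, one of these ERF factors, so that it is described as an attenuator of the response. LDH1 is L-lactate dehydrogenase, which interconverts pyruvate and lactate and regenerates NAD+ for glycolysis when respiration is limited. Roots live in media where oxygen is often scarce, and the inner cells of a root are known to receive less of it than the outer ones.

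RNA of sorted cells went through two-cycle labelling, and RNA of protoplasts and roots through one-cycle labelling, and no comparison below crosses these protocols. Arrays whose median correlation with the other arrays of their own material was under 0.6 were left out of the fits. These were replicate 1 of EndoP in transitory nitrate, replicate 1 of whole roots in KCl at 2 h, replicates 1 and 2 of incubated roots in KCl and replicate 2 of incubated roots in continuous nitrate. The fits thus hold 26 one-cycle and 53 two-cycle arrays, and incubated roots in KCl rest on 1 array. No 2 arrays held identical values. The Peri glutamine group, whole roots at 3.5 h and protoplasts in transitory nitrate carry sample numbers of a later block than all other groups. No label says what sets this block apart. Of 25 marker genes listed for the cell types, 9 have a probe set that can be named. In KCl, the root cap marker RCPG was higher in LRC than in the other populations by 2.28 (log2, adjusted p = 9.02e-04, limma), but so was CO2, listed for the cortex, by 0.60 (adjusted p = 0.0245). GSO1, an endodermal receptor kinase, was lower in LRC (-1.99), and the photosynthesis gene RCA was higher in EpiC by 2.64 and lower in EndoP (-1.28) and Stele (-1.69). The root hair marker EXPA7 was not higher in EpiC (-1.42, adjusted p = 0.158) and was higher in EndoP by 1.98 and in Stele by 1.96. No other difference of these 9 markers passed, and the populations are named by their labels only. In bulk samples such as these, fewer cells of a type and less RNA per cell cannot be told apart.

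The clearest movement of HRA1 was in Peri cells given glutamine. The arrays with glutamine are of the later block of sample numbers and those with MSX alone are not. Glutamine and block thus cannot be told apart. In continuous nitrate with MSX the 3 arrays read 6.67, 6.17 and 7.38 on the log2 scale of the HRA1 probe set. With glutamine added they read 9.42, 9.09 and 10.20, all above every array without it. The difference was 2.83 (SE 0.71, 95% interval 1.41 to 4.26), or 7.13-fold, with an adjusted p of 0.0336 in limma's fit over all 19038 probe sets tested. Of those probe sets 0.552% were called higher and 0.567% lower in this comparison. Over the 14 alternative settings tried for this difference, the adjusted p ranged from 0.0157 to 0.187 and was under 0.05 in 8. It was 0.177 and 0.131 without replicate 1 or 2 of the MSX group, and 0.0893 and 0.187 without replicate 1 or 3 of the glutamine group, with differences between 2.52 and 2.91.

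HRA1 in the MSX group was also the lowest mean of all 18 sorted groups, at 6.74 ± 0.61 (SD, n = 3), and the glutamine group was the highest, at 9.57 ± 0.57 (SD, n = 3). In continuous nitrate without MSX the 3 Peri arrays read 8.85, 7.37 and 9.59, so the MSX arrays overlap with their lowest one. The change with MSX in nitrate was -1.87 (SE 0.71, 95% interval -3.29 to -0.44) and missed the threshold, with an adjusted p of 0.0725 where 4.7% of probe sets were called lower and 7.78% higher. Its adjusted p ranged from 0.0178 to 0.22 over 14 alternatives. Without replicate 2 of the nitrate group it was 0.0378, with a difference of -2.48. In KCl, MSX gave arrays of 6.33, 8.32 and 8.48 against 9.74, 7.14 and 8.72 without it, a difference of -0.83 with an adjusted p of 0.905 where 0.0683% of probe sets were called lower and 0.0315% higher. The comparisons of MSX and of glutamine in nitrate share the 3 MSX arrays, so their opposite signs for HRA1 are not independent of each other.

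LDH1 did not pass in these comparisons of MSX and of glutamine. Its arrays read 9.61, 8.90 and 9.49 in nitrate with MSX and 8.53, 8.81 and 9.24 after glutamine, and the groups overlap. The difference was -0.47 (95% interval -1.49 to 0.54, limma adjusted p = 0.754). With MSX in nitrate LDH1 was higher by 1.06 (SE 0.50), from arrays of 7.77, 7.59 and 9.47 without MSX, and the adjusted p was 0.15. Over 14 alternatives that adjusted p ran from 0.0376 to 0.503, and it passed only without replicate 3 of the nitrate group, at a difference of 1.66. In KCl the MSX effect on LDH1 was -0.22 (adjusted p = 0.999).

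The HRA1 rise with glutamine came with other genes of the low-oxygen list, 52 loci known to respond to low oxygen, of which 20 besides HRA1 and LDH1 could be tested. Of these 20, 6 rose and none fell, where 0.552% and 0.567% of all probe sets did so. An unadjusted p under 0.05 was found in 11 of the 20 and in 2764 of the 19038 probe sets tested, and the median difference was 1.15 against -0.03. AT4G10270 read 7.39, 6.72 and 7.78 with MSX and 11.39, 10.68 and 11.95 with glutamine, a rise of 4.05 (SE 0.82, adjusted p = 0.0087). AT1G33055 read 6.72, 6.77 and 7.19 with MSX and 10.29, 9.25 and 10.36 with glutamine, a rise of 3.07 (SE 0.56, adjusted p = 0.00312). For both loci the arrays of the 2 groups were far apart. AT5G10040 rose by 3.50, AT4G33560 by 3.16, AT1G19530 by 2.71 and AT5G44730 by 1.61, with adjusted p between 0.0107 and 0.0174. The count was 1 without replicate 1 or 2 of the MSX group or replicate 3 of the glutamine group, and otherwise 4 to 9 under the settings tried. PDC2, pyruvate decarboxylase, which opens the ethanol branch of fermentation, read 7.38, 6.85 and 7.37 with MSX and 6.97, 8.06 and 8.32 with glutamine, and its groups overlap.

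**Figure D1:**
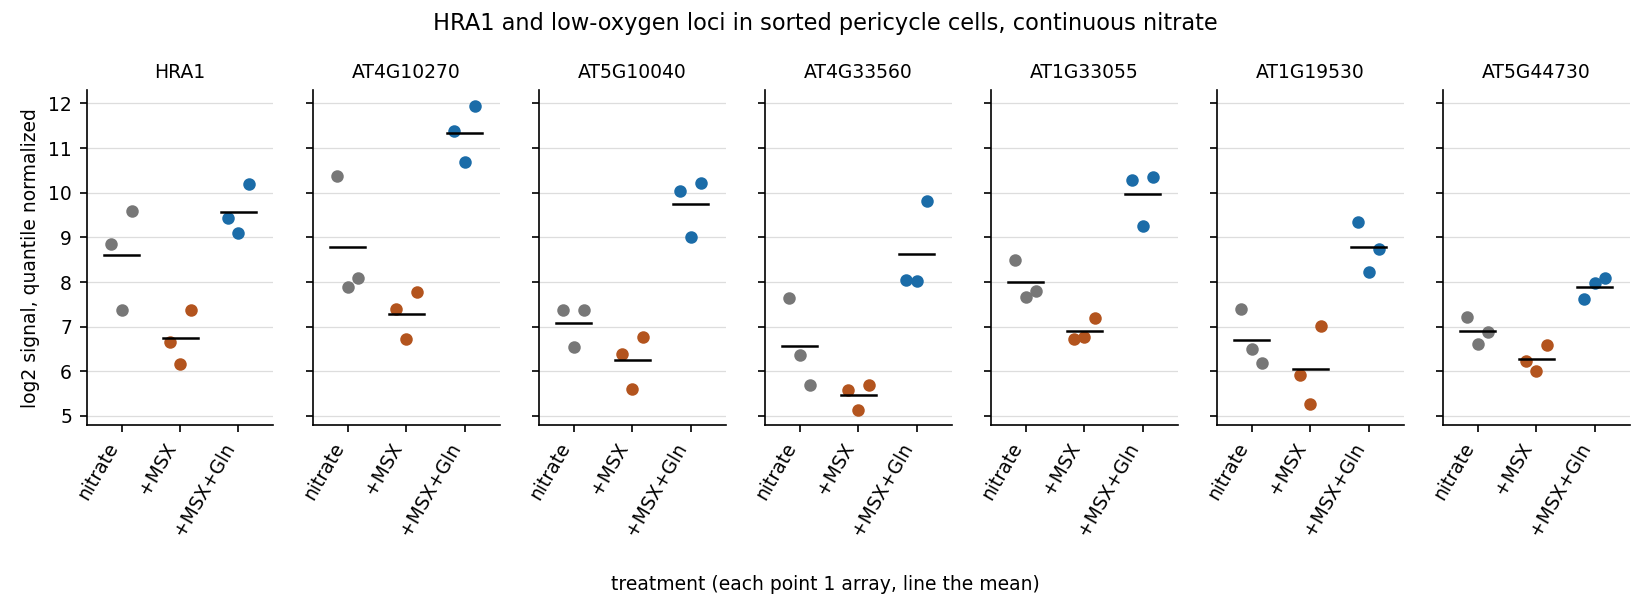
Log2 signal of HRA1 and the 6 other low-oxygen genes called after glutamine, in Peri cells. Treatments are continuous nitrate alone, with MSX and with MSX plus glutamine. Points are single arrays (3 a group) and short lines are group means. HRA1 lies between 9.09 and 10.20 after glutamine against 6.17 to 7.38 with MSX.

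The measure of RNA integrity moved with the glutamine groups. The difference between the 3' and 5' GAPDH control probe sets, which widens when transcripts are shortened or labelled over 2 rounds, was 3.16 to 3.84 in the MSX arrays and 3.97 to 5.33 in the glutamine arrays, without overlap. With this difference as a covariate, HRA1 rose by 2.69 (limma adjusted p = 0.0496) and 7 of the 20 low-oxygen genes were called. Across the 53 two-cycle arrays HRA1 had a correlation of 0.0462 with the GAPDH difference, as a description of arrays that share groups.

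In whole roots, HRA1 varied as much between replicates as between groups. At 3.5 h it read 6.68, 8.12 and 7.18 in KCl and 6.39, 8.26 and 7.68 in nitrate. At 2 h it read 7.54 and 6.53 in KCl, with 5.83 on the array left out, and 6.88, 5.54 and 6.13 in nitrate. The groups overlap at each time, and nitrate changed HRA1 by -0.85 at 2 h and by 0.12 at 3.5 h, with adjusted p of 1 in both. In these 2 comparisons limma called 0% of 17152 probe sets, while 214 and 154 had an unadjusted p under 0.05. Between 2 h and 3.5 h HRA1 differed by 1.26 in nitrate (SE 0.51, adjusted p = 0.34) and by 0.29 in KCl (adjusted p = 0.928). The 10 one-cycle group means of HRA1 spanned 1.26, from 6.18 in nitrate at 2 h to 7.44 in nitrate at 3.5 h, against a median SD within groups of 0.71. All 9 pairs of neighbours in that order overlapped, and the F test among the 10 groups gave an adjusted p of 0.391.

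**Figure D2:**
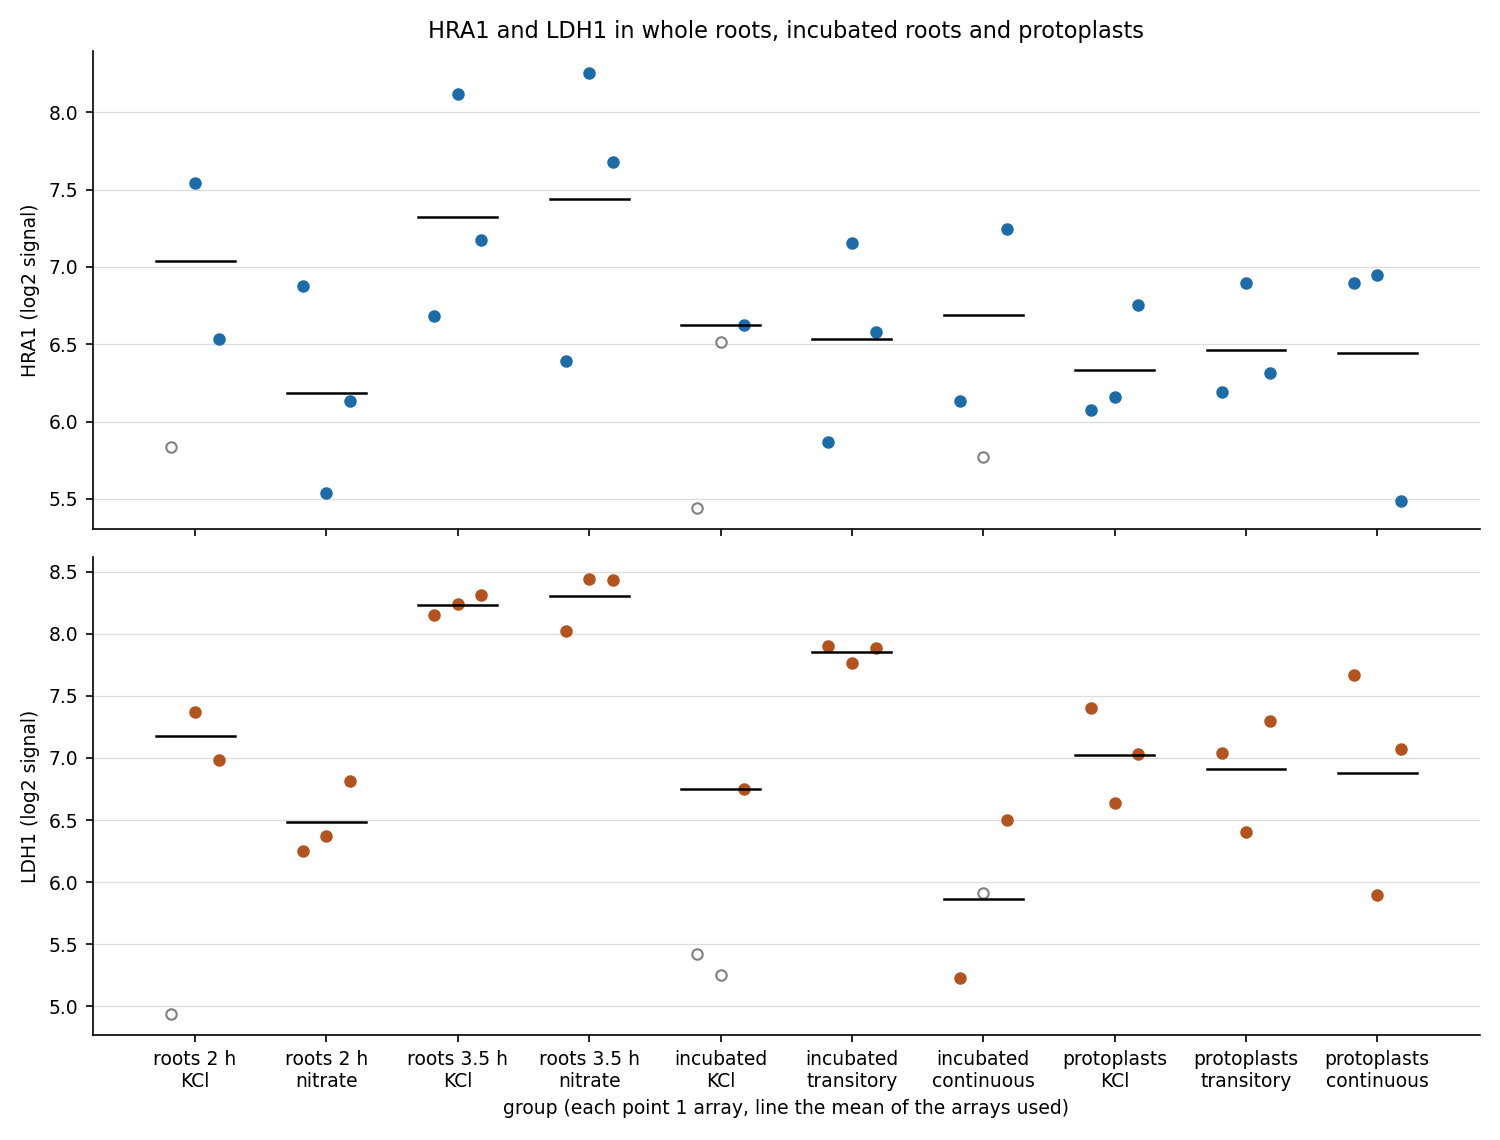
Log2 signal of the HRA1 probe set (first panel) and the LDH1 probe set (second panel) in whole roots, incubated roots and protoplasts. Filled points are arrays used in the fits, open grey circles the 4 arrays left out, and lines are group means. LDH1 sits between 8.02 and 8.45 in whole roots at 3.5 h, above its other groups, while the HRA1 groups overlap.

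In nitrate, LDH1 was higher in the roots treated for longer. At 3.5 h it read 8.15, 8.24 and 8.31 in KCl and 8.02, 8.45 and 8.44 in nitrate, the highest levels of the one-cycle groups. At 2 h it read 6.25, 6.37 and 6.82 in nitrate, and 7.37 and 6.98 in KCl with 4.94 on the array left out. In nitrate, LDH1 was higher at 3.5 h by 1.82 (SE 0.36, 95% interval 1.08 to 2.56, 3.53-fold, limma adjusted p = 0.0258), and the arrays of the 2 times did not overlap. In this comparison 0.245% of probe sets were called higher and 0.111% lower. In KCl the arrays also lay apart, with a difference of 1.06 (SE 0.40, 95% interval 0.23 to 1.89), but the adjusted p was 0.368 and 0% of probe sets were called (1657 at an unadjusted p under 0.05). The difference between the changes in nitrate and in KCl was not tested. No label says whether both times were harvested at one hour of the day, and hour and duration cannot be told apart here. The 3.5 h roots are of the later block of sample numbers and the 2 h roots are not. Block and duration cannot be told apart either.

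The call for LDH1 in nitrate was open to single arrays. Its adjusted p ranged from 0.0177 to 0.362 over 15 alternatives and was under 0.05 in 9. It was 0.119 and 0.108 without replicate 1 or 2 at 2 h, 0.158 and 0.156 without replicate 2 or 3 at 3.5 h, and 0.362 when all arrays were kept, at differences of 1.71 to 1.82. Of the 20 other low-oxygen genes none was called by limma at 3.5 h against 2 h in nitrate. There, 12 had an unadjusted p under 0.05, as did 11.6% of all probe sets, and the median difference of the 20 was 0.92 against -0.0047 over all. In KCl, 4 had one, against 9.66% of all, with a median of 0.64 against -0.02.

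Nitrate itself left LDH1 without a call in whole roots. The difference was -0.69 at 2 h (adjusted p = 1) with no overlap between 3 arrays and 2, and 0.05 when all arrays were kept. At 3.5 h it was 0.07 (adjusted p = 1). In incubated roots, where KCl rests on 1 array, nitrate gave HRA1 -0.01 and LDH1 0.11. This LDH1 value averages opposite changes, with means of 7.85 in transitory and 5.86 in continuous nitrate against 6.75 in KCl. In protoplasts nitrate gave HRA1 0.12 and LDH1 -0.13, where limma called 0% of probe sets and 961 had an unadjusted p under 0.05. The protoplasts in transitory nitrate are of the later block of sample numbers, and those in KCl are not.

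In protoplasts both genes were lower than in whole roots at 3.5 h. HRA1 in protoplasts read 6.07, 6.16 and 6.76 in KCl and 6.90, 6.95 and 5.49 in continuous nitrate, overlapping with the low replicates of whole roots at 3.5 h. Averaged over both treatments it was lower than in those roots by 1.99-fold, a difference of -0.996 (SE 0.36, 95% interval -1.75 to -0.24, limma adjusted p = 0.044). LDH1 in protoplasts read 7.41, 6.64 and 7.03 in KCl and 7.67, 5.89 and 7.07 in continuous nitrate, all below the 6 root arrays. It was lower by 2.49-fold, a difference of -1.31 (SE 0.25, 95% interval -1.84 to -0.79, adjusted p = 6.9e-04). In this comparison 15.3% of all probe sets were called lower and 13% higher, so a lower value was a common outcome. The LDH1 call stood in all 22 alternatives tried (adjusted p 0.000228 to 0.0122), whereas that of HRA1 stood in 9 of 22 (0.0124 to 0.126). Same-numbered root arrays in KCl and nitrate deviated together, and with each such pair averaged to 1 sample the adjusted p was 0.0108 for LDH1 and 0.117 for HRA1. HRA1 lost it in 7 of the runs without 1 array, at adjusted p between 0.0616 and 0.126. Columns were used to purify protoplast RNA and TRIzol to purify root RNA, so digestion and extraction cannot be told apart. Nor can the later block of sample numbers, which holds the root arrays at 3.5 h but not these protoplast arrays.

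Of the 20 other low-oxygen genes, 11 were lower and 1 was higher in protoplasts than in whole roots at 3.5 h. Of all probe sets 15.3% were called lower and 13% higher. The median of the 20 was -1.04 against 0.03 over all probe sets. AT1G33055 read 6.80, 6.85 and 7.31 in KCl-treated protoplasts against 8.41, 9.96 and 9.04 in roots, and differed by -2.10 (adjusted p = 0.00109) over both treatments. PDC2 read 6.0, 5.84 and 6.84 in KCl-treated protoplasts against 7.40, 8.05 and 7.65 in roots. It was lower, at -1.58 (SE 0.20, adjusted p = 1.69e-05) over both treatments, with the 2 materials apart in KCl. The differences were -2.13 for AT5G66985, -1.62 for AT5G10040, -1.55 for AT4G10270 and -1.47 for AT1G19530, with adjusted p between 3.97e-04 and 0.0239. The gene that rose was AT1G72940, by 0.81, named here after its value was seen. The number lower was 7 when all arrays were kept or same-numbered root arrays averaged, 8 with the GAPDH difference as a covariate and 8 to 12 without single arrays.

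**Figure D3:**
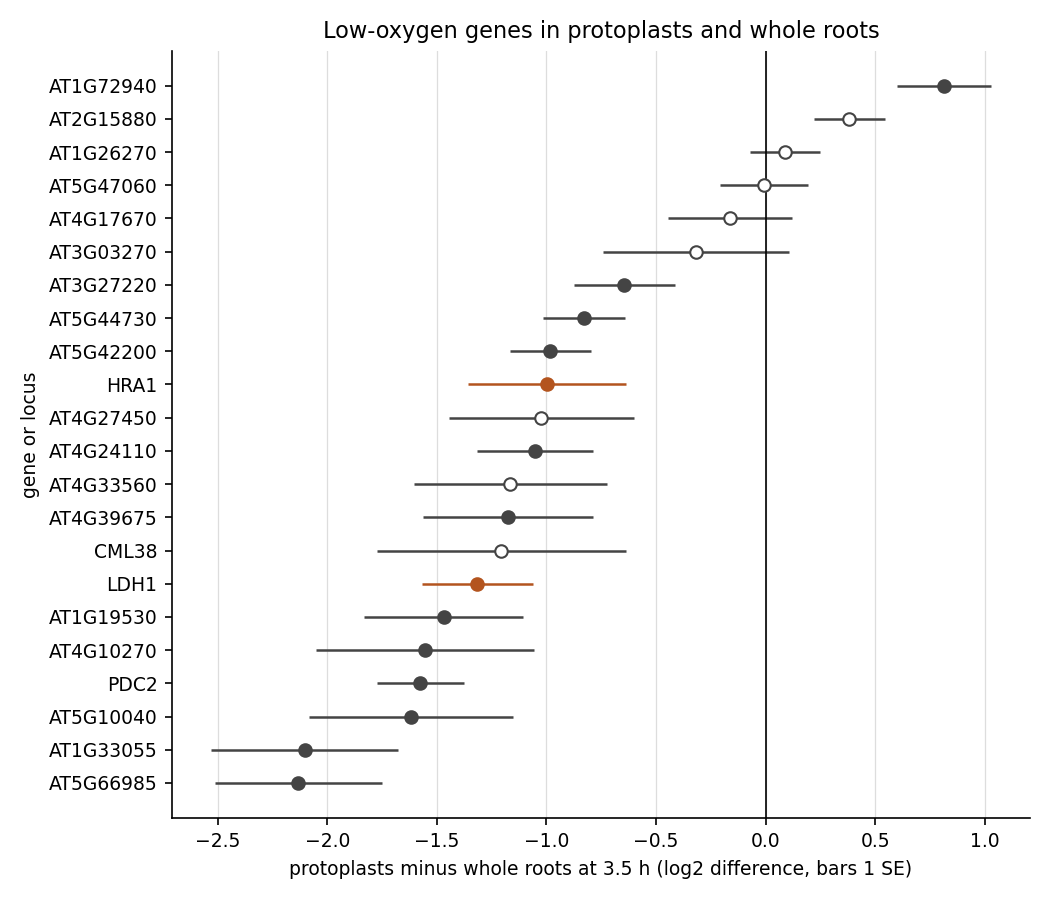
Difference between protoplasts and whole roots at 3.5 h (log2, mean of KCl and continuous nitrate) for HRA1, LDH1 (orange) and the 20 other low-oxygen genes. Filled points passed an adjusted p of 0.05, open points did not, and bars are 1 SE. LDH1 at -1.31 and HRA1 at -0.996 lie among the 11 other genes called lower, whose estimates reach -2.13.

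In incubated roots, which met the solution but not the enzymes, LDH1 was lower and HRA1 did not pass. LDH1 read 6.75 on the array kept in KCl, with 5.42 and 5.25 on those left out, and 5.23 and 6.50 in continuous nitrate, with 5.91 left out. In transitory nitrate its 3 arrays read 7.91, 7.77 and 7.89, above every other incubated array. Against whole roots at 3.5 h, LDH1 was lower in KCl and continuous nitrate by 3.90-fold, a difference of -1.96 (SE 0.32, 95% interval -2.63 to -1.29, adjusted p = 0.00322), where 11.8% of probe sets were called lower and 6.54% higher. HRA1 read 6.62, 6.13 and 7.25 on the same arrays, and its difference of -0.73 did not pass (adjusted p = 0.248, 0.0162 to 0.796 over 18 alternatives). Of the 20 other low-oxygen genes AT1G33055 (-1.69) and PDC2 (-1.18) were lower and 1 was higher, with a median of -0.57 that was -1.22 with all arrays and -0.76 to -0.21 without single arrays. The number lower was 15 when all arrays were kept and 0 with same-numbered root arrays averaged, without replicate 1 of continuous nitrate or with the GAPDH difference as a covariate, described next. It was 9 without replicate 3 of continuous nitrate, 4 without replicate 1 of either whole-root group and 1 without replicate 2 or 3 of either. This comparison and that of protoplasts share the root arrays, which are of the later block of sample numbers, while the incubated roots are not. Incubation and block cannot be told apart here. Between protoplasts and incubated roots, digestion and RNA extraction cannot be told apart, as against whole roots. There, the protoplasts in transitory nitrate are of the later block of sample numbers, and no incubated roots are. Protoplasts and incubated roots did not differ in either gene past the threshold (HRA1 -0.20, adjusted p = 0.734, and LDH1 0.12, adjusted p = 0.779), where 14.8% of probe sets were called higher and 10.5% lower.

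LDH1 moved with the GAPDH difference across the one-cycle arrays. That difference was 0.41 to 1.05 in incubated roots in transitory nitrate, 2.49 in KCl and 1.83 to 5.10 in continuous nitrate, and 0.44 to 1.08 in whole roots at 3.5 h. Over the 26 arrays its correlation with LDH1 was -0.804, and within materials it was -0.958 in 6 incubated root arrays, -0.778 in 9 protoplast arrays and -0.739 in 11 whole root arrays. For HRA1 it was -0.212. These are descriptions of arrays that share groups and treatments. With the GAPDH difference as a covariate, LDH1 in incubated roots differed from roots at 3.5 h by -0.91 (adjusted p = 0.492), the one of 18 alternatives in which the call was lost, the others reaching down to 0.000204. The adjusted p was 0.0375 with same-numbered root arrays averaged. In the same fit protoplasts kept a difference of -0.98 (adjusted p = 6.89e-04) and the change from 2 h to 3.5 h in nitrate was 1.38 (adjusted p = 0.0221). Without replicate 1 of incubated roots in continuous nitrate, whose GAPDH difference was 5.10, the incubated roots differed by -1.65 (adjusted p = 0.0222). The F test of LDH1 among the 10 one-cycle groups gave an adjusted p of 0.00141 where 21.5% of probe sets passed, and it held in all 34 alternatives (0.000312 to 0.00527).

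**Figure D4:**
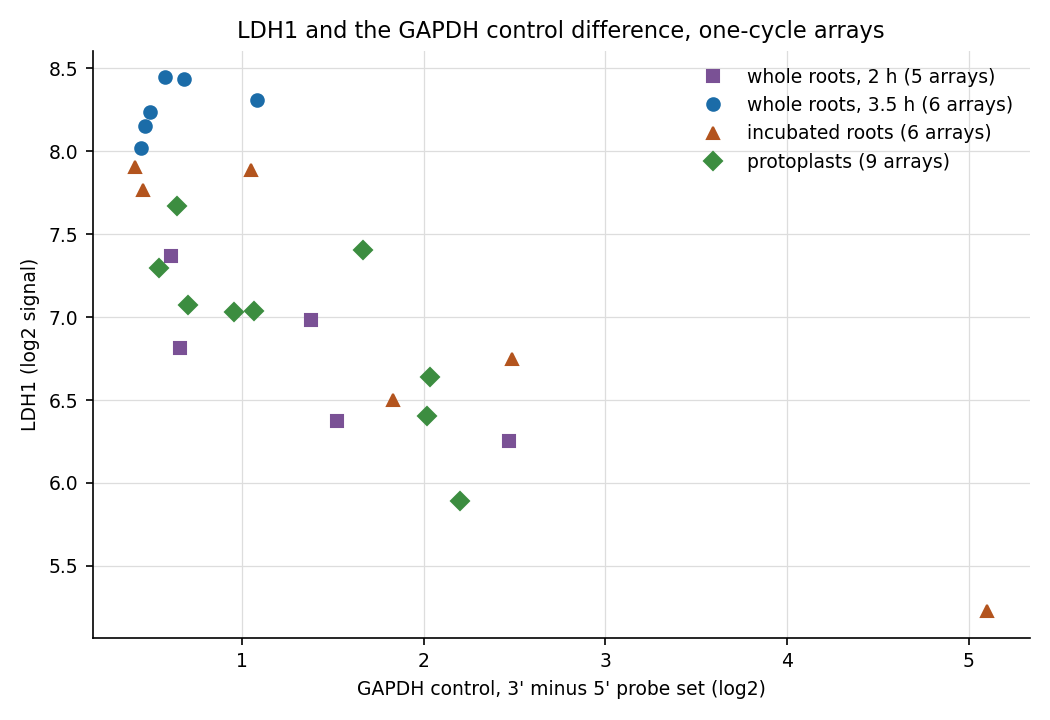
LDH1 log2 signal against the difference between the 3' and 5' GAPDH control probe sets (log2) on the 26 one-cycle arrays used, by material. LDH1 is high where the GAPDH difference is small, with a correlation of -0.804 over the arrays, and the array with a GAPDH difference of 5.10 has the lowest LDH1 value, 5.23.

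The order of the 10 one-cycle groups by LDH1 ran from whole roots at 3.5 h in nitrate (8.30 ± 0.24, SD, n = 3) and in KCl (8.23 ± 0.08, SD, n = 3) to incubated roots in continuous nitrate (5.86, n = 2). Of the 9 pairs of neighbours 7 overlapped. The pairs that did not were whole roots at 3.5 h in KCl over incubated roots in transitory nitrate (7.85 ± 0.07, SD, n = 3), and these over whole roots in KCl at 2 h (7.17, n = 2).

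Among KCl-treated sorted cells, the LDH1 mean was highest in Peri and EpiC and lowest in LRC. EpiC arrays read 8.91, 9.59 and 9.74 in KCl, 9.11, 9.39 and 9.54 in transitory nitrate and 9.44, 9.56 and 9.72 in continuous nitrate. KCl-treated Peri read 9.72, 9.29 and 9.58, and KCl-treated EndoP 8.12, 8.61 and 8.59. KCl-treated LRC read 6.85, 7.76 and 8.82, and Stele 10.05, 8.16 and 8.43, each with wide spread. In KCl the EpiC arrays were all above those of EndoP, while LRC reached into the EndoP range. LDH1 in LRC was below the mean of the other populations by 2.39-fold, a difference of -1.26 (SE 0.40, 95% interval -2.06 to -0.45, adjusted p = 0.0176), where 13.5% of probe sets were called lower and 13.4% higher. The F test among the 5 populations gave an adjusted p of 0.0211 in a background of 45.4%.

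The LRC result rested partly on 1 array. Without replicate 1 of KCl-treated LRC the difference was -0.77 (adjusted p = 0.231) and that of the F test rose to 0.13. Without replicate 2 they were 0.0649 and 0.0554. The adjusted p of the difference ranged from 0.00119 to 0.417 over 23 alternatives, 20 of them under 0.05, and that of the F test from 0.00577 to 0.13, with 19 under 0.05. The GAPDH difference was 3.40 to 6.05 in KCl-treated LRC and 2.56 to 4.12 in the other populations, and with it as a covariate LDH1 differed by -0.67 (adjusted p = 0.417). Over the 53 two-cycle arrays LDH1 had a correlation of -0.542 with the GAPDH difference, as a description. Within populations it was -0.649 in LRC, -0.698 in EpiC and -0.559 in EndoP, but 0.0253 in Peri and 0.148 in Stele. Other populations missed the threshold for LDH1, with differences from the rest of 0.90 in Peri (adjusted p = 0.194), 0.75 in EpiC (0.233), -0.47 in EndoP (0.409) and 0.08 in Stele (0.904). The share of probe sets called higher was 3.84% in Peri, 3.76% in EpiC, 11.9% in EndoP and 12.7% in Stele, and the share called lower 1.11%, 2.2%, 7.68% and 11.1%.

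For HRA1 no difference among the populations passed. In KCl its arrays read 7.94, 7.59 and 6.87 in LRC, 7.65, 7.99 and 8.54 in EpiC, and 7.32, 7.99 and 8.27 in EndoP. They read 9.74, 7.14 and 8.72 in Peri and 10.17, 6.26 and 7.42 in Stele, whose SD of 2.01 was the widest of all groups. Every population overlapped with every other. The differences from the rest ran from -0.64 in LRC (adjusted p = 0.411) to 0.70 in Peri (adjusted p = 0.46), and the F test gave 0.714. Of the 17 pairs of neighbours in the order of the 18 sorted groups all overlapped, for HRA1 and for LDH1 alike, against ranges of the means of 2.83 and 2.69. LDH1 did so although its F test among the populations passed, so overlap of neighbours does not show that groups are alike.

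**Figure D5:**
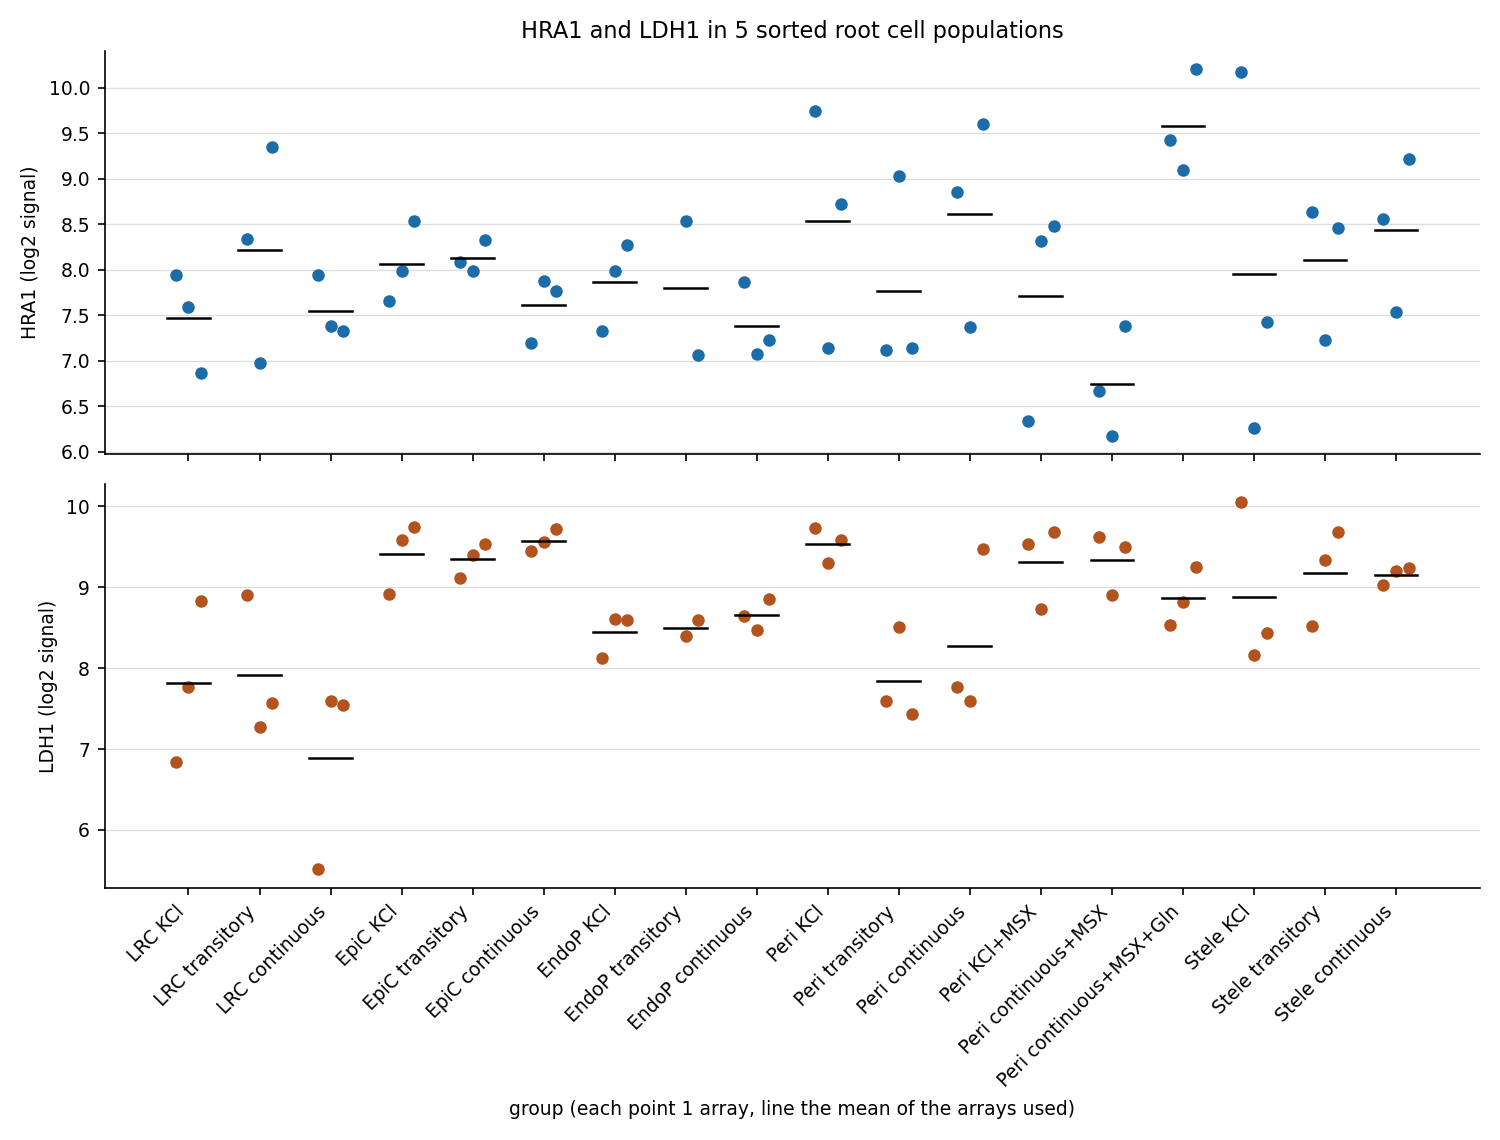
Log2 signal (quantile normalized) of the HRA1 probe set (first panel) and the LDH1 probe set (second panel) in the 18 groups of sorted cells. Points are the 53 arrays used and lines are group means, and the array of EndoP in transitory nitrate that was left out is not drawn. HRA1 is highest after glutamine (9.09 to 10.20) and LDH1 is high in EpiC (8.91 to 9.74) and low in LRC (5.51 to 8.90).

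Of the 20 other low-oxygen genes, 6 were lower in KCl-treated LRC and none higher, where 13.5% and 13.4% of all probe sets were. Their median was -0.04 against -0.03 over all probe sets, -0.46 on the deposited values and between -0.48 and 0.11 without single arrays. The largest were AT5G66985 (-1.80), AT4G39675 (-1.67), AT1G72940 (-1.25) and AT1G33055 (-1.16). None was called with the GAPDH difference as a covariate or without replicate 1 of KCl-treated LRC, 3 were without its replicate 2 or replicate 1 of KCl-treated Peri, and 2 under scaling to the 75th percentile. In Peri, AT1G72940 (1.49) and PDC2 (1.14) were higher than in the other populations, in EndoP AT5G42200 was higher by 0.82, and in Stele AT1G72940 was lower (-1.03). In the same directions 3.84% of all probe sets were called in Peri, 11.9% in EndoP and 11.1% in Stele. In the trihelix family, the relatives of HRA1, 3 of 10 genes tested were higher in LRC and 1 lower, where 13.4% and 13.5% of all probe sets were. GT-3A was among the higher ones (1.78), and PTL, known for its part in petal initiation, was the lower one (-1.40). In Stele 1 was higher and 1 lower, where 12.7% and 11.1% of all probe sets were. Of 10 trihelix genes tested 4 passed the F test among populations, close to the 45.4% of all probe sets, and none passed a comparison of nitrate, MSX or glutamine by limma.

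LDH1 was lower in Peri cells treated with nitrate than in those in KCl, a difference that moved with array intensity, as given below. The KCl arrays read 9.72, 9.29 and 9.58, those in transitory nitrate 7.59, 8.51 and 7.43, and those in continuous nitrate 7.77, 7.59 and 9.47. Of the 6 nitrate arrays 5 lay below all KCl arrays and replicate 3 in continuous nitrate lay among them. The difference was -1.47 (SE 0.44, 95% interval -2.35 to -0.59, 2.78-fold, limma adjusted p = 0.0185), where 14.1% of probe sets were called lower, 15.3% higher and the median of all was -0.15. In MSX the nitrate groups differed by 0.02 in LDH1 (95% interval -0.99 to 1.04, adjusted p = 1, 0.00525% of probe sets called higher and 0% lower). The difference between the effects with and without MSX was not tested.

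This fall depended on how array intensity was treated. The overall signal was 173 to 177 in the KCl arrays, 177 to 353 in transitory and 205 to 372 in continuous nitrate. With log2 signal as a covariate LDH1 differed by -0.81 (adjusted p = 0.558), and on the deposited values by -0.75 (adjusted p = 0.12). The adjusted p was 0.086 without replicate 1 and 0.0626 without replicate 3 of the KCl group, and ranged from 0.00561 to 0.558 over 18 alternatives with 13 under 0.05. It was 0.0458 with same-numbered nitrate arrays averaged, since these deviated together. Across the 18 Peri arrays LDH1 correlated with log2 signal at -0.698, as a description. With the GAPDH difference as a covariate the change was -1.34 (adjusted p = 0.0171).

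Among the 20 other low-oxygen genes 5 fell with nitrate in Peri and none rose, where 14.1% and 15.3% of all probe sets did so. An unadjusted p under 0.05 was as frequent among them (10 of 20) as over all probe sets (47%), and the median was -0.86 against -0.15. The 5 that fell were AT5G66985 (-2.02), AT1G72940 (-1.56), AT4G17670 (-1.54), AT5G47060 (-1.54) and PDC2 (-1.04). None was called without replicate 1 of the KCl group, with signal as a covariate or with only the compared groups, 1 without replicate 3 of the KCl group, and 3 with same-numbered nitrate arrays averaged. With MSX in nitrate CML38, a calmodulin-like protein, rose by 1.99 and AT1G72940 by 1.96, in a comparison that shares the continuous nitrate arrays. There, 7.78% of all probe sets were called higher. CML38 read 10.20, 9.32 and 8.82 in nitrate and 11.72, 11.09 and 11.49 with MSX, without overlap.

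In the other populations nitrate changed neither gene past the threshold. For LDH1 the differences were -0.41 in LRC, 0.05 in EpiC (95% interval -0.83 to 0.93), 0.13 in EndoP and 0.29 in Stele, and for HRA1 they were 0.42 in LRC, -0.19 in EpiC, -0.27 in EndoP, -0.35 in Peri and 0.32 in Stele. The share of probe sets called higher by limma was 0.0158% in LRC, 0.189% in EpiC, 0% in EndoP and 0.158% in Stele, and the share called lower 0.00525%, 0.51%, 0% and 0.0105%. In EndoP 158 had an unadjusted p under 0.05. Averaged over the 5 populations, nitrate gave HRA1 -0.01 (95% interval -0.57 to 0.54) and LDH1 -0.28 (-0.68 to 0.11), with limma adjusted p of 0.994 and 0.844 in a background of 0.389% called lower and 0.415% higher. The interaction of nitrate with population gave adjusted p of 0.913 for HRA1 and 0.162 for LDH1, where 1.09% of probe sets passed. Over all comparisons, HRA1 passed 1 of 10 in one-cycle and 1 of 17 in two-cycle arrays, and LDH1 4 of 10 and 3 of 17.

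HRA1 and LDH1 tracked each other in some materials and not in others. Across group means their correlation was 0.673 over 10 one-cycle groups and 0.124 over 18 two-cycle groups. Over arrays it was 0.673 in 11 whole root arrays, -0.319 in 9 protoplast arrays and 0.682 in 9 Stele arrays, where 1 array was high in both. These points share treatments and hybridization, and the values are descriptions.

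In whole roots at 3.5 h and in KCl-treated Stele, many of the other low-oxygen genes were highest and lowest in the same replicates as HRA1. These groups were picked after the values were seen. No other group was ranked, also not KCl-treated Peri, where the SD of HRA1 was 1.31. In whole roots at 3.5 h, replicate 2 had the highest HRA1 value and replicate 1 the lowest, in KCl and in nitrate. AT1G33055 read 8.41, 9.96 and 9.04 in KCl and 7.81, 10.01 and 9.35 in nitrate, and AT5G10040 read 7.17, 8.92 and 7.85 and then 6.81, 8.76 and 7.85. Replicate 2 was highest in 14 of the 20 genes in KCl and in 14 of 20 in nitrate, and replicate 1 lowest in 13 and 16. Over all probe sets, too, same-numbered arrays of these 2 groups deviated together (correlations of 0.72 to 0.838, against at most 0.127 between other numbers), so the 2 groups are not independent here. In KCl-treated Stele replicate 1 was highest for HRA1 (10.17) and for 18 of the 20 genes, such as AT4G10270 at 10.87, 6.88 and 8.76. The signal of that array was 192 against 299 and 314 for the others, and its part in these values was not tested. These counts of genes are given without the share of all probe sets that had the same order, so they have no background.

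Taken as deviations from the group means, HRA1 had a median correlation of 0.737 with the 20 genes over 25 one-cycle arrays, against 0.0114 over all probe sets, and 14 of the 20 were above 0.5. AT1G33055 (0.923), AT3G27220 (0.9), AT4G24110 (0.89) and AT5G10040 (0.888) were closest, and AT2G15880 (-0.0332), CML38 (-0.206) and AT1G72940 (-0.3) were below 0. Over 53 two-cycle arrays the median was 0.382, against -0.00816 over all probe sets, with AT3G27220 (0.726) and AT1G33055 (0.723) again at the top. LDH1 stood further from the list, with medians of 0.173 and 0.291 and 1 gene above 0.5 under each protocol. Arrays of one group share their treatment, so that these deviations hold what differed between samples of a group, and they carry no test.

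Among genes with a symbol, the group means most like those of HRA1 were, in 10 one-cycle groups, PDC2 (r 0.804), ARL (0.789) and TIL (0.783), a temperature-induced lipocalin. In 18 two-cycle groups they were NRPB9B (0.794), a subunit of RNA polymerase II, HSA32 (0.752), a heat-acclimation protein, and SKP2A (0.704), an F-box protein. For LDH1 they were SERPIN1 (0.979), a protease inhibitor, UGT71C1 (0.97), a glycosyltransferase, and SIRB (0.942), a siroheme ferrochelatase, in one-cycle groups. In two-cycle groups they were TRI (0.907), SAPX (0.85), an ascorbate peroxidase, and OEP16-3 (0.846). No gene was among the closest 3 under both protocols, out of 1295 and 1392 candidates.

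Of 23 listed genes of glycolysis and pyruvate use, the pathway that feeds LDH1, 7 could be tested. In incubated roots 3 of these were lower than in whole roots at 3.5 h, where 11.8% of all probe sets were, namely GAPC2, a cytosolic glyceraldehyde-phosphate dehydrogenase (-1.59), the pyruvate kinase AT5G56350 (-1.35) and the triose-phosphate isomerase TPI (-1.09). The GAPDH difference moved with these groups too, as given above, and its part in the 3 values was not tested. Over the settings tried, 0 to 11749 of all probe sets were called in this comparison. In Peri, AT5G56350 was the 1 of the 7 that fell with nitrate (-1.18), where 14.1% of all probe sets were called lower. In protoplasts 2 of the 7 were lower than in whole roots at 3.5 h and none higher, where 15.3% and 13% of all probe sets were. In KCl-treated LRC 1 was lower and none higher, where 13.5% and 13.4% were. PGM, a phosphoglycerate mutase-like gene, rose with nitrate in EpiC by 2.37 (limma adjusted p = 0.00129) and with MSX in nitrate in Peri by 1.82. It was the 1 of the 7 called in each, where 0.189% and 7.78% of all probe sets were called higher. LDH1 had differences of 0.05 and 1.06 there that did not pass.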

How the data were processed

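The authors deposited 1 log2 signal for each probe set and array. Their software, background correction and normalization are not given in the sources used here, and the scale was inferred from the range and steps of the numbers. Genes were named from the platform annotation, and no genome coordinates or sequences were used. One-cycle values were taken as deposited (array medians spanned 0.303), and two-cycle values were quantile normalized (span 1.04). Probe sets above the 40th percentile in at least 3 arrays were tested, 17152 and 19038. Fits used limma 3.58.1 in R 4.3.3 with 1 coefficient per group, an intensity trend and Benjamini-Hochberg adjustment over all probe sets tested, at 0.05, two-sided, and were tested on simulated data. The lone array of a group was assumed to vary like the other groups. The number of arrays limits the precision. Titles call the samples biological replicates, and nothing says that they came from separate cultures. The p-values thus set each difference against the spread between these samples, estimated over all groups of the protocol. Titles gave the groups, since the source labels of all EpiC arrays read continuous nitrate. Same-numbered samples were compared by their deviations from group means. Over all groups the median correlation was 0.00291 and 0.0112, and in 4 of 31 pairs of groups of 1 material every correlation was over 0.1. These were whole roots at 3.5 h in KCl and nitrate (0.72 to 0.838), EndoP (0.247 to 0.638) and LRC (0.116 to 0.472) in KCl and continuous nitrate, and the Peri nitrate groups (0.272 to 0.419). The pairing comes from the data, and for whole roots and Peri it was added to the alternatives after the values were seen. HRA1 and LDH1 were named in every comparison, with at most 6 listed genes per comparison by size among those passing, and the 3 genes with a symbol most like each. The members and lists were chosen with earlier results of these data known. HRA1 is a synonym in the reference gene table, and the name LDH1 comes from general knowledge of the locus. Figures used Python 3.11.15 and matplotlib 3.10.9. Alternatives were other scalings, no filter, all 84 arrays, covariates, only the compared groups, a replicate block, averages of same-numbered arrays and leaving out each array.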

Additional observations from a re-analysis of the deposited data

How the results depend on the processing

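Without the filter on low values all 54 results for HRA1 and LDH1 kept direction and side of the threshold, and with a replicate block 53 did, HRA1 under nitrate in incubated roots turning from -0.01 to 0.0166; the block changed no call. For whole roots at 3.5 h, whose numbers pair the samples, a block with only these groups left nitrate at 0.12 (SE 0.14, adjusted p 0.671) for HRA1 and 0.07 (SE 0.10, 0.752) for LDH1. Averaging same-numbered arrays of paired groups took the call of HRA1 in protoplasts (-0.996, adjusted p 0.117) and no other call of HRA1 or LDH1, and moved the number of probe sets called from 4856 to 2570 in protoplasts, 3143 to 251 in incubated roots and 5598 to 1897 under nitrate in Peri. Scaling to the 75th percentile took 2 calls (HRA1 in protoplasts against whole roots -0.96, after glutamine 2.78), and fitting only the compared groups took 3 (HRA1 in protoplasts -0.996, LDH1 under nitrate in Peri -1.47, HRA1 after glutamine 2.83). With all 84 arrays, LDH1 at 3.5 h against 2 h in nitrate (1.82), HRA1 in protoplasts (-0.996) and the F test of LDH1 in KCl (adjusted p 0.0733) no longer passed, HRA1 in incubated roots (-1.10) passed, and LDH1 under nitrate at 2 h (0.0503) and in EndoP (-0.39), HRA1 under nitrate in incubated roots (0.26) and HRA1 in protoplasts against incubated roots (0.044) reversed. With the GAPDH difference as a covariate, chosen after seeing the data, LDH1 in incubated roots (-0.91), HRA1 in protoplasts (-0.96), LDH1 in LRC (-0.67) and its F test (0.117) no longer passed, and LDH1 reversed under nitrate in incubated roots (-0.0831) and EpiC (-0.11), in protoplasts against incubated roots (-0.28), in Stele (-0.14), with MSX in KCl (0.20) and under nitrate with MSX (-0.23), as did HRA1 in Stele (0.0767). With array signal as a covariate LDH1 under nitrate in Peri (-0.81) no longer passed, and HRA1 reversed in EpiC (-0.13), EndoP (0.24) and Stele (0.38) and under nitrate in incubated roots (0.24), Peri (0.26), Stele (-0.0859) and on average (0.0534), as did LDH1 under nitrate in incubated roots (-0.0533) and Stele (-0.15). With the other normalization, LDH1 at 3.5 h against 2 h in nitrate (1.75), HRA1 in protoplasts (-0.94) and LDH1 under nitrate in Peri (-0.75) no longer passed, HRA1 with MSX in nitrate (-2.49) passed, HRA1 reversed in EpiC (-0.18), EndoP (0.42) and Stele (0.27) and under nitrate in Peri (0.32) and on average (0.0832), and LDH1 in EndoP (0.06) and under nitrate in EndoP (-0.0294), Stele (-0.21) and incubated roots (-0.11). Leaving out replicate 1 of incubated roots in continuous nitrate too reversed HRA1 under nitrate there (0.27) and LDH1 in protoplasts against incubated roots (-0.0933). The causes were not tested. No result that passed as reported was reversed.

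Leaving out single arrays, HRA1 ranged from -0.22 to 0.79 at 3.5 h against 2 h in KCl, -1.26 to -0.76 in protoplasts against whole roots, -2.48 to -1.37 with MSX in nitrate and 2.52 to 3.15 after glutamine. In KCl it ranged from -1.52 to -0.14 with MSX, -0.87 to -0.34 in LRC, 0.0983 to 1.40 in Peri, -0.35 to 0.13 in EndoP, -0.13 to 0.38 in EpiC and -1.14 to 0.82 in Stele. Under nitrate it ranged from -0.63 to 0.10 in EndoP, -0.39 to 0.0542 in EpiC, -1.05 to 0.25 in Peri, -0.52 to 1.43 in Stele, -0.18 to 0.21 on average, -0.29 to 0.27 in incubated roots, -0.0037 to 0.36 in protoplasts, -1.36 to -0.35 in whole roots at 2 h and -0.29 to 0.64 at 3.5 h, and also from 0.12 to 0.73 in LRC and -1.66 to -0.59 with MSX, and in incubated against whole roots from -1.01 to -0.45 (protoplasts against incubated roots -0.39 to -0.0156). LDH1 ranged from 1.71 to 1.99 at 3.5 h against 2 h in nitrate, -1.76 to -0.77 in LRC, -0.51 to 0.44 in Stele (F test 0.00577 to 0.13), -0.40 to 0.0718 with MSX in KCl, 0.72 to 1.66 with MSX in nitrate, -0.27 to 0.24 under nitrate with MSX and -0.0933 to 0.33 in protoplasts against incubated roots. It ranged from -0.69 to -0.31 after glutamine and -0.59 to -0.31 in EndoP in KCl. Under nitrate LDH1 ranged from -0.38 to -0.17 on average, -0.0282 to 0.21 in EndoP, -0.20 to 0.21 in EpiC, -0.89 to 0.10 in LRC, -1.77 to -1.30 in Peri, -0.0747 to 0.87 in Stele, -0.21 to 0.43 in incubated roots, -0.33 to 0.12 in protoplasts and -0.0043 to 0.21 in whole roots at 3.5 h.

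Counts of all probe sets called moved further. Over the settings other than leaving out arrays they ran from 10 to 95 (61 as reported) at 3.5 h against 2 h in nitrate, 21 to 938 (213) after glutamine, 0 to 11749 (3143) in incubated roots, 2196 to 5566 (4856) in protoplasts, 0 to 8908 (5598) under nitrate in Peri, 1296 to 6719 (5122) in LRC, 302 to 3415 (2376) with MSX in nitrate, 3970 to 9766 (8636) for the F test in KCl, 2461 to 4827 (3685) for that of the one-cycle groups and 3 to 4244 (208) for the interaction.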
